A study of Mus musculus with 4 samples.

Results

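Type 2 conventional dendritic cells (cDC2) were examined among CD45+ cells sorted from mouse liver and profiled by 10x Genomics 5′ single-cell RNA sequencing. They were selected on raw counts of unique molecular identifiers (UMIs), where 1 UMI stands for 1 captured transcript. A cell with 600 to 6000 genes and no more than 5% of its UMIs from mitochondrial genes was kept, and a kept cell was a member when it had 2 or more UMIs of Cd209a and 10 or more of H2-Ab1. Members also had at most 1 UMI of Xcr1 and Clec9a together, at most 2 of F13a1 and Chil3 together, and 0 of Siglech, Ccr7, Cd3d, Cd3e and Cd3g. The rule chose 333 of 36286 kept cells, which came from 39121 barcodes.

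The 4 libraries were 1 from each of 4 groups of female C57BL/6 mice. Young WT mice were 8 weeks old and had been given neither agent. The treated groups were WT, miR-146a-/- and miR-146a-/- Ccl5-/- double-knockout (DKO) mice, all 36 weeks old by the labels. Each treated mouse had received 25 mg/kg of the liver carcinogen diethylnitrosamine (DEN) by intraperitoneal injection at 14 days of age, and from weaning at 21 days it ate a choline-deficient diet with 60% fat (CDHFD). Age and treatment cannot be told apart between young WT and treated WT, and the labels give both knockouts as genotypes of the mouse, with no restriction to a cell type. The number of mice behind a library is not stated. With 1 library per group no test between groups was possible, and every interval is a 95% interval of counting error only.

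Conventional dendritic cells carry antigen from tissue to T cells, and the type 2 lineage is known mainly for presenting it on MHC class II to CD4+ T cells. They depend on the growth factor receptor Flt3, bear the signal-regulatory receptor Sirpa and the lectins Cd209a, Clec10a and Mgl2, and use the transcription factors Irf4, Klf4 and Zbtb46. In liver they sit beside cross-presenting type 1 cells (cDC1), monocytes and Kupffer cells, the resident macrophages, and miR-146a is a known brake on NF-κB signaling in such myeloid cells through Irak1 and Traf6.

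Members numbered 40 in young WT, 72 in treated WT, 75 in treated miR-146a-/- and 146 in treated DKO, and values are given in this order. The whole libraries held 90756272, 103165826, 88706063 and 103147246 UMIs. Members held 637170, 1264345, 1382906 and 2717294 UMIs, with medians of 14638.5, 16446.5, 17566 and 17536 UMIs per cell. The young WT members were the fewest and the shallowest, and 3 counts, the floor used for a gene with 0 UMIs, correspond to 4.71 CPM (a gene's UMIs scaled to the summed UMIs of the members) in them and to 1.10 CPM in treated DKO. Pairs of libraries shared 1.26% to 1.65% of the smaller library's barcodes, and no member's barcode was a member in a second library.

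The label was checked on genes that the rule did not use. Flt3 stood at 162, 130, 239 and 206 CPM in the members and at 23.7 to 27.1 CPM in the other kept cells. Sirpa stood at 212, 190, 306 and 304 CPM, above cDC1 (17.7 to 56.8 CPM) and near classical monocytes (343 to 463 CPM). Clec10a was at 215, 146, 162 and 183 CPM, and it did not pass 7.24 CPM in cDC1 or 17.6 CPM in classical monocytes. All 3 genes were present in the members of every library, and Clec10a was low in both gated neighboring types. Zbtb46, a factor of conventional dendritic cells, had 147.5, 121, 133 and 110 CPM, against at most 2.38 CPM in classical monocytes. Irf8, the factor that marks cDC1, was at 42.7 to 65.9 CPM in the members and at 1542 CPM or more in cDC1. Irf4 had 30.9 to 47.1 CPM, against 1.07 to 4.70 CPM in cDC1 and 2.19 to 7.08 CPM in classical monocytes, and B cells had 117 to 197 CPM.

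**Figure D1:**
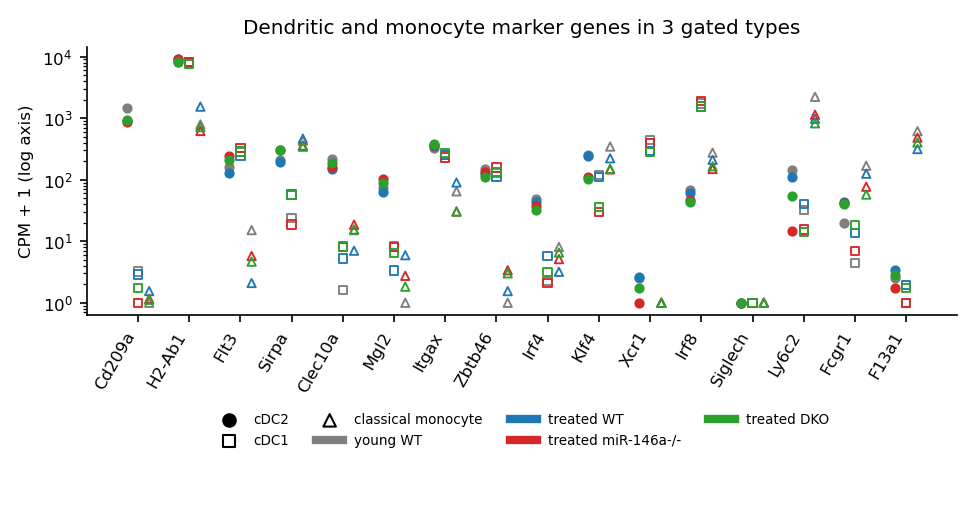
Levels of 16 marker genes (CPM plus 1 on a log axis) in cDC2, cDC1 and classical monocytes, with 1 point per library and a color for each group. Clec10a and Mgl2 are high in cDC2 points only, Flt3 and Zbtb46 in both dendritic types, and Irf8 in cDC1. Xcr1 is also high in cDC1, which the rules of both dendritic types fix.

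At equal depth the markers were seen in part of the members. With each cell thinned to 5000 UMIs, Flt3 had a UMI in 59.0%, 43.7%, 50% and 56.8% of the members (85%, 79.2%, 82.7% and 87.7% before thinning). In B cells, a type that should have little of it, the thinned share was 4.67%, 10.4%, 8.16% and 8.40%, and their median depth before thinning was 5675, 6927.5, 7085 and 6830 UMIs. Clec10a had a UMI in 30.8%, 33.8%, 35.1% and 38.4% of thinned members and in 0% of thinned B cells in each library. The members thus stood well above B cells for both genes. Flt3 was at 15.6 to 29.5 CPM in B cells and at 0.0964 to 1.12 CPM in T cells, so its B-cell share need not be free RNA alone. Mgl2 was in 17.9%, 12.7%, 9.46% and 10.3% of thinned members and was a minority gene among them.

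Members lay mostly away from the limits for Cd209a and H2-Ab1. Their Cd209a count ran from 2 to 90 UMIs with a median of 11, and their H2-Ab1 count from 11 to 410 with a median of 149. At the limit of 1 UMI of Xcr1 and Clec9a together were 12, 11, 3 and 14 members. Just inside the limit, 32 members had 2 UMIs of Cd209a, and just outside it 61 cells met every other condition with 1 UMI, among 1408 that failed on Cd209a alone. Clec10a was at 76.0 CPM in the 32 cells and at 183 CPM in the 301 members with more Cd209a, Mgl2 at 2.0 and 90.5 CPM, and Flt3 at 218 and 191 CPM. In the 61 cells outside, Flt3 was at 162 CPM, and Cd79a, a B-cell receptor chain, was at 101 CPM against 0 CPM in the 32 members at the limit. The Cd3 condition alone turned away 136 cells (37, 43, 21 and 35), of which 34 had a single UMI, and the F13a1 and Chil3 condition alone turned away 10 cells, in which Lyz2 reached 11961 CPM and Clec10a 670.4 CPM, so Clec10a does not separate members from these cells.

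No doublet caller was run. Doublets were limited by the 6000-gene ceiling and by the markers that the rule excludes, so transcripts of other cell types were counted in the members from gene lists. A member was set apart when it held 10 or more UMIs of the NK-cell, T-cell, B-cell (without Ighm), neutrophil, macrophage or hepatocyte list. These were 5 of 40 members (12.5%), 9 of 72 (12.5%), 5 of 75 (6.67%) and 16 of 146 (11.0%), 35 in all. Their median depth was 15319, 20432, 17852 and 21325 UMIs, higher in each library than that of the other 298 members. Results that rest on these cells are given with and without them, and whether each was 1 cell or 2 cells in a droplet was not tested.

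The other-type transcripts differed by library, and part of them sat in few cells. The NK-cell list of 7 genes summed to 869.5 CPM in young WT members and to 11.1, 13.7 and 35.7 CPM in the treated libraries. In young WT 3 members held 98.0% of these 554 UMIs, led by Gzma at 496 CPM. In treated WT Ncr1, Klrb1c and Prf1 were at 0. The macrophage list of 10 genes summed to 29.8, 316, 137 and 156 CPM, with 4, 8, 7 and 8 genes seen. In treated WT 6 members held 91.5% of its 400 UMIs and 1 cell held 256 of them, led by C1qb, while the Kupffer-cell gene Clec4f was at 0 in the other 3 libraries and Marco in all 4. In treated miR-146a-/- and treated DKO the macrophage list was led by Timd4 (100 of 190 and 133 of 425 UMIs), 40 and 61 members had a UMI of it, and the 4 and 12 members with 10 or more held 46.3% and 72.5%. The neutrophil list of 8 genes summed to 0, 36.4, 20.2 and 878 CPM, and in treated DKO 1 cell held 98.7% of its 2386 UMIs, led by S100a9.

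The remaining lists of other types differed in level. The B-cell list of 8 genes summed to 199, 209.6, 185 and 742 CPM, was led by Ighm in every library, and had Ms4a1 at 0 in young WT and treated miR-146a-/-. Ighm had 1926 UMIs in treated DKO, of which 1548 were in 1 cell. The T-cell list of 9 genes summed to 59.6, 26.9, 18.8 and 21.3 CPM with Cd8b1 at 0 outside treated DKO, and was led by Lck in young WT. The hepatocyte list of 8 genes summed to 171, 121, 66.5 and 69.6 CPM, of which Trf made up most. The endothelial and stellate list of 6 genes summed to 15.7, 16.6, 17.4 and 28.0 CPM, with Stab2 and Col3a1 at 0 in all libraries. For plasmacytoid cells 4, 5, 5 and 6 of 8 genes were seen, and Bst2 led. Klk1 was at 0 throughout, and so was Siglech, by the rule. The cDC1 list of 10 genes summed to 556, 518, 538 and 546 CPM, against 4886 CPM or more in gated cDC1, and was led by Wdfy4. It includes Xcr1, which the rules limit in members and use to choose cDC1, so part of this gap is fixed by them.

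The share of cDC2 among kept cells was higher in each treated library than in young WT. It was 40 of 10283 cells in young WT (0.389%, exact interval 0.278% to 0.529%), 72 of 8329 in treated WT (0.864%, 0.677% to 1.09%), 75 of 7824 in treated miR-146a-/- (0.959%, 0.755% to 1.20%) and 146 of 9850 in treated DKO (1.48%, 1.25% to 1.74%). Treated WT was 2.22 times young WT (Katz interval 1.51 to 3.27), and the intervals of these shares did not overlap. When every cell was thinned to 5000 UMIs before the rule, the shares were 0.628% and 1.02%, a ratio of 1.62, and their intervals (0.462% to 0.835% and 0.791% to 1.29%) overlapped. Without the Cd3 condition the ratio was 1.84. Treated miR-146a-/- was 1.11 times treated WT (0.804 to 1.53), a difference not detectable at this depth. Treated DKO was 1.55 times treated miR-146a-/- (1.17 to 2.04) and 1.72 times treated WT (1.30 to 2.27).

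The ratio of treated DKO to treated miR-146a-/- moved with the cells it was counted against. T cells, chosen by 2 or more Cd3d, Cd3e and Cd3g UMIs, were 48.5% of kept cells in treated miR-146a-/- and 39.2% in treated DKO. Among kept cells without any Cd3d, Cd3e or Cd3g UMI, cDC2 were 1.17%, 2.46%, 2.58% and 3.03%, and the ratio was 1.17 (0.891 to 1.54). A much stricter removal, of members with 2 or more UMIs of the B-cell, NK-cell, neutrophil or hepatocyte lists, left 0, 12, 19 and 22 members, and the ratio was then 0.920 (0.498 to 1.70). That removal took out most members. Ighm had a UMI in 90%, 75%, 76% and 84.2% of them, and the hepatocyte list in 33, 48, 37 and 85 of them.

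Within the dendritic compartment the balance lay further toward cDC2 in the treated libraries. Of cDC1 and cDC2 together, cDC2 were 22.1%, 42.4%, 50% and 55.9%, a ratio of treated WT to young WT of 1.92 (1.39 to 2.65), of treated miR-146a-/- to treated WT of 1.18 (0.931 to 1.5) and of treated DKO to treated miR-146a-/- of 1.12 (0.922 to 1.36). The cDC1 share of kept cells was 1.37%, 1.18%, 0.959% and 1.17%, with each of the 3 ratios inside its counting error. Mature dendritic cells, chosen by Ccr7 and Fscn1, were 0.0681%, 0.588%, 0.447% and 0.447%. The cells so chosen also carried the B-cell list at 3222, 1633, 3830 and 1392 CPM. In young WT they were 7 cells, with the macrophage list at 5940 CPM, so these shares may take in other cells. Classical monocytes, a lineage that can also give rise to dendritic-like cells, were 0.301%, 1.52%, 4.08% and 4.19%, so their share stepped up at miR-146a-/-, where that of cDC2 did not.

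**Figure D2:**
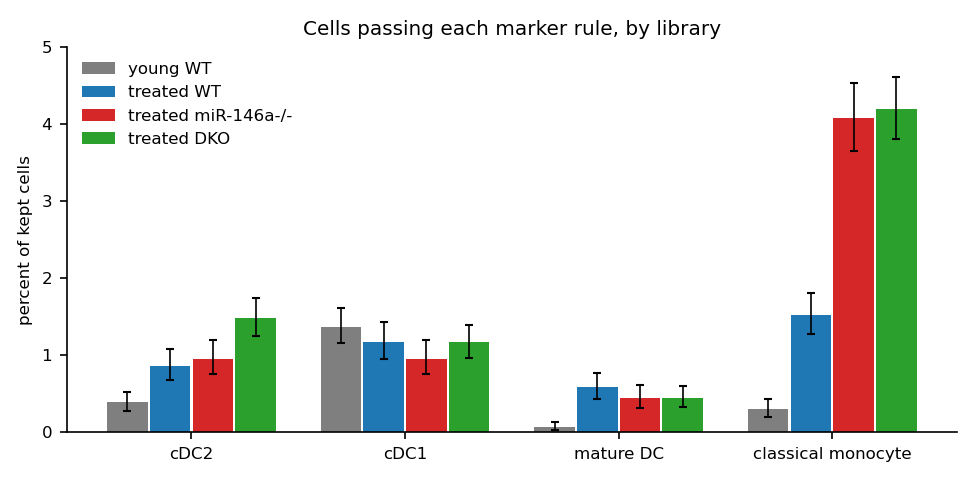
Percent of kept cells that pass each marker rule, by library, with exact 95% binomial intervals as error bars. cDC2 are lowest in young WT (0.389%) and highest in treated DKO (1.48%), while classical monocytes reach 4.08% and 4.19% in the libraries that lack miR-146a.

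Among genes of at least 50 CPM, those that most set the members apart from other kept cells included the rule's own gene. Cd209a had a mean of 1037 CPM over the 4 libraries against 18.1 CPM elsewhere, which the rule fixes. Next came the endocytic adaptor Dab2 (83.9 against 3.75 CPM), the lectin Mgl2 (80.4 against 3.64 CPM), the catenin Ctnnd2 (164 against 7.41 CPM), Bex6 and the protease inhibitor Spint1 (131 against 8.83 CPM). Clec10a, Rtn1, the short-chain fatty acid receptor Ffar2 and the decoy receptor Il1r2 completed the first 10. Ctnnd2 and Dab2 were also almost absent from the nearest types, with means of 8.44 and 1.97 CPM in cDC1 and of 0 and 1.82 CPM in classical monocytes.

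Further down the 20 leading genes were some that cDC2 and cDC1 both had. Zbtb46, Cd34, Rnf150 and Dapk1 had means of 128, 50.5, 51.3 and 225 CPM in cDC2 and of 132.5, 80.4, 46.2 and 164 CPM in cDC1. The cyclin Ccnd1 had 505 CPM in cDC2, 244 CPM in cDC1 and 2.65 CPM in classical monocytes. The collagen receptor kinase Ddr1 was at 81.4 CPM in cDC2 and 5.05 CPM in cDC1, and Rnd3, Nccrp1, Snx21 and I830077J02Rik made up the rest. Among these genes the levels across groups varied by library, and Ddr1 was higher in the libraries without miR-146a (48.7, 43.5, 120 and 113 CPM), as was Ctnnd2 (92.6, 126, 236 and 201 CPM).

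Subset genes described for mouse cDC2 were unevenly present. The Clec12a-high list of 9 genes summed to 2331, 1914, 2717 and 2821 CPM, and all 9 were seen in every library, led by Tmem176b or, in treated miR-146a-/-, by Lyz2. The same list summed to 16314 CPM or more in gated classical monocytes and to 1515, 1613, 944 and 1664 CPM in cDC1, so it was not particular to the members. The ESAM-high list of 5 genes summed to 40.8, 32.4, 53.5 and 48.2 CPM, and Esam itself was at 0 in all 4. The list for monocyte-derived dendritic cells, of 8 genes, summed to 245, 406, 228 and 235.5 CPM, and the classical monocyte list of 8 to 736, 747, 608 and 675 CPM, led by Ms4a4c with Chil3 and Vcan at 0 in treated miR-146a-/-. In gated classical monocytes the latter list summed to 3289 CPM or more. Its genes Chil3 and Ly6c2 helped to choose those cells, and Chil3 is limited in members, so part of this gap is fixed by the rules.

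Expression varied among the members. Over members thinned to 5000 UMIs, the variance divided by the mean had a median of 1.12 over all genes of at least 50 CPM. It was highest for Gm42418, Cdk8 and Cmss1 (48.8, 34.6 and 30.5). It was 19.1 for Cd74, the MHC class II chaperone, which had a UMI in 100% of members in every library, and 10.8 for the lysozyme gene Lyz2, which was in 53.8%, 54.9%, 45.9% and 43.8%. Actb, Cst3, Malat1 and Hist1h2ae were also among the 10 most variable. Cxcl10, which recruits T cells through Cxcr3, was of another kind. It had a value of 14.5, and it was in 0%, 7.04%, 6.76% and 4.79% of thinned members.

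Cxcl9 and Cxcl10 marked a small number of members of the treated libraries. At 3 or more UMIs, Cxcl9 was in 0 of 40, 7 of 72, 2 of 75 and 11 of 146 members, and Cxcl10 in 0, 4, 5 and 5. Of the 20 members with Cxcl9 and the 14 with Cxcl10, 10 had both. The 0 of 40 allows a share of up to 8.81%. Thinned B cells had Cxcl9 in at most 0.526% and Cxcl10 in at most 1.38%, so the thinned shares of the treated members, of 4.05% to 8.45% for Cxcl9, stood above that background. Of the 20 members with Cxcl9, 2 also had 3 or more UMIs of the complement genes C1qa, C1qb and C1qc.

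Age and treatment were compared between treated WT and young WT, which share a genotype. Of 6043 genes with a mean of at least 20 CPM, 110 were at least 2-fold higher in treated WT members (1.82%) and 96 at least 2-fold lower (1.59%), with a median log2 ratio of -0.02 over all 6043. The higher genes included interferon-stimulated genes, the T-cell-recruiting chemokines Cxcl9 and Cxcl10, and lipid-handling genes. The lower ones included Hpgd, Cd209c and Asb2, and also genes of cytotoxic lymphocytes. The tested MHC class II genes gave 0 past 2-fold. With the 35 set-apart members left out, Apoe of the 10 largest rises and Nkg7, Ccl5, Ms4a4b and Sept1 of the 10 largest falls were within 2-fold. Nkg7, C1qb, C1qc and Gzma are in the lists that set those members apart, and the last 3 then had 4 against 0, 9 against 1 and 0 against 4 UMIs.

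Part of the interferon-stimulated genes were higher in treated WT. Of 19 tested, 7 were higher and 0 lower, against the 1.82% and 1.59% of all genes, and the median log2 ratio was 0.60. The list summed to 2053, 3653, 2865 and 2399 CPM, so treated WT was highest and the other treated libraries lay between it and young WT. Isg15, a ubiquitin-like modifier, stood at 73.8, 395, 160 and 157.5 CPM, a log2 ratio of 2.41 (1.99 to 2.88) for treated WT over young WT. Ifit3, which binds viral RNA complexes, stood at 28.2, 144, 40.5 and 26.9 CPM (log2 2.31, 1.65 to 3.14). Both were highest in treated WT, and Ifit1, Ifit2, Ifi205, Oas1a and Rsad2 were the others past 2-fold. Rsad2, the antiviral enzyme viperin, had 3 UMIs in young WT and 151 in treated WT, of which 1 cell held 115, and the UMIs outside its 3 highest cells came to 9.49 CPM of that library. In that library 1 cell also held 209 of 499 UMIs of Isg15, 98 of 182 of Ifit3, 50 of 89 of Ifit1 and 68 of 159 of Ifit2. The size of these differences thus depends on few cells. Without the 35 members set apart, 7 of 19 were again higher and the median was 0.83.

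This interferon difference did not run through every cell type. In cDC1 6 of the 19 genes were higher and 0 lower (median 0.39). In classical monocytes, of which young WT had 31, 0 were higher and 4 lower (median -0.54). B cells had 2 higher and 1 lower (median 0.11), and T cells had none in either direction. The medians of all 6043 genes in those types lay from 0.01 to 0.07. The shares of all genes past 2-fold given above are those of cDC2 only. Members with 10 or more UMIs of Isg15, Ifit1, Ifit2, Ifit3 and Rsad2 together were 3 of 40 (7.5%, 1.57% to 20.4%), 12 of 72 (16.7%, 8.92% to 27.3%), 13 of 75 (17.3%) and 23 of 146 (15.8%, 10.3% to 22.7%). The intervals of these shares overlapped.

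Ifitm1, an interferon-induced membrane protein, was among the largest differences. It had 1.57, 118, 296 and 321 CPM, with a UMI in 2.5%, 22.2%, 54.7% and 50% of members. It was near 0 in young WT and highest in the libraries without miR-146a. From 1 UMI in young WT, the log2 ratio to treated WT was 5.65 (3.73 to 11.54), and from treated WT to treated miR-146a-/- it rose by a further 1.32 (1.05 to 1.61). In treated WT 1 cell held 86 of its 149 UMIs, so the size of both differences depends on few cells. With the 35 set-apart members left out the log2 ratios were 5.65 and 1.09. In cDC1 the first of these log2 ratios was 3.11 and in T cells -0.44.

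Chemokine ligands differed in both directions. Of 8 tested, 2 were higher in treated WT and 1 lower, with a median of 0.40, and 3 were higher and 0 lower without the set-apart members, where Ccl3 passed 2-fold (log2 1.44, against 0.51 with them). Cxcl9 stood at 0, 100, 41.9 and 194 CPM, and treated WT was at 21.3 times the level of 3 counts in young WT. The lower 95% limit of the log2 ratio was 4.10. Cxcl10 stood at 1.57, 172, 221 and 92.4 CPM, log2 6.20 (4.29 to 12.09) from 1 UMI in young WT. Both were close to absent in young WT members, and 3 cells held 65.4% of the Cxcl9 UMIs and 91.3% of the Cxcl10 UMIs in treated WT. For the share of members with 3 or more UMIs, the interval in young WT was 0% to 8.81% for each gene. In treated WT it was 4.0% to 19.0% for Cxcl9 and 1.53% to 13.6% for Cxcl10, so the intervals of these shares overlapped. Ccl22, a mature-cell chemokine, was at 0 and 35.6 CPM, with 41 of its 45 treated WT UMIs in 3 cells and a mean over the 4 libraries under the 20 CPM minimum.

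Ccl5, the gene deleted in DKO mice, stood at 1212, 64.1, 42.7 and 15.8 CPM in the members. Young WT was by far the highest, with a log2 ratio of -4.23 (-4.59 to -3.91), but 3 of its 40 members held 95.6% of the 772 UMIs. These 3 members were among the 5 set apart, and without the set-apart cells Ccl5 was at 58.4 and 66.2 CPM and the log2 ratio was 0.17. Thinned shares of members with a Ccl5 UMI were 17.9%, 26.8%, 17.6% and 6.16%, against 20.1%, 25.7%, 12.9% and 7.44% in B cells. With shares this near those of B cells, expression of Ccl5 by cDC2 cannot be told apart from free RNA.

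Lipid-handling genes were higher in treated WT for 4 of 9 tested, with 0 lower and a median of 0.60, but the set-apart cells carried much of this. The fatty acid binding protein Fabp5 stood at 6.28, 139, 214 and 134 CPM, lowest in young WT (log2 4.31, 3.09 to 6.36). In treated WT 1 cell held 147 of its 176 UMIs, and without the 35 members the log2 ratio was 1.99, still past 2-fold. Apolipoprotein Apoe stood at 20.4, 174, 72.3 and 31.3 CPM (log2 3.04, 2.29 to 4.02), and without those members its log2 ratio was 0.32. Plin2, which coats lipid droplets, and the sterol-sensing receptor Nr1h3 had log2 ratios of 1.11 and 1.21 with them and of 0.40 and -0.30 without. The count for the list was then 1 of 9 and its median -0.06.

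Macrophage genes moved with these. C1qb stood at 0, 149.5, 15.2 and 40.1 CPM, and treated WT was at 31.7 times the level of 3 counts in young WT. The lower 95% limit of its log2 ratio was 4.68, but 132 of its 189 UMIs were in 1 cell and 4 were left without the set-apart members. C1qc and C1qa were also higher, and Timd4 was lower on 3 UMIs against 1 (log2 -2.21, -8.29 to 1.06). In the list of lipid-associated macrophages Cd63 and Fabp5 of 5 tested were higher (Cd63 0 and 74.3 CPM, and 1 UMI in treated WT without the set-apart members). The defining genes Trem2 and Gpnmb of that list were at 0 in young WT and at 16.6 and 49.0 CPM in treated WT. The neutrophil genes S100a8 and S100a9 were higher, each with all of its treated WT UMIs in 1 cell.

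The lower genes differed in how far they were spread over cells. Hpgd, which breaks down prostaglandin E2, stood at 201, 56.2, 31.8 and 37.5 CPM, with a UMI in 40%, 34.7%, 6.67% and 12.3% of members, highest in young WT (log2 -1.83, -2.28 to -1.41). The lectin Cd209c stood at 62.8, 10.3, 29.6 and 15.8 CPM, highest in young WT as well (log2 -2.57, -3.64 to -1.68), and Asb2, Pygl and Prr5l had log2 ratios of -2.0, -2.05 and -1.75. In young WT 3 cells held 66 of 128 UMIs of Hpgd and 26 of 40 of Cd209c, so the size of these 2 differences depends on few cells. Without the set-apart members these 5 genes were again past 2-fold. Gzma, Nkg7, Ms4a4b and Sept1 were lower too (log2 -8.71, -5.06, -2.01 and -1.88), and without those members Nkg7, Ms4a4b and Sept1 were within 2-fold at -0.70, -0.03 and -0.99, where Nkg7 is itself in the NK-cell list that set members apart, while Gzma had 4 UMIs left in young WT and 0 in treated WT. The syndecan Sdc4 (4.71, 33.2, 60.0 and 42.0 CPM) rose on 3 UMIs in young WT (log2 2.61, 1.17 to 5.15).

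**Figure D3:**
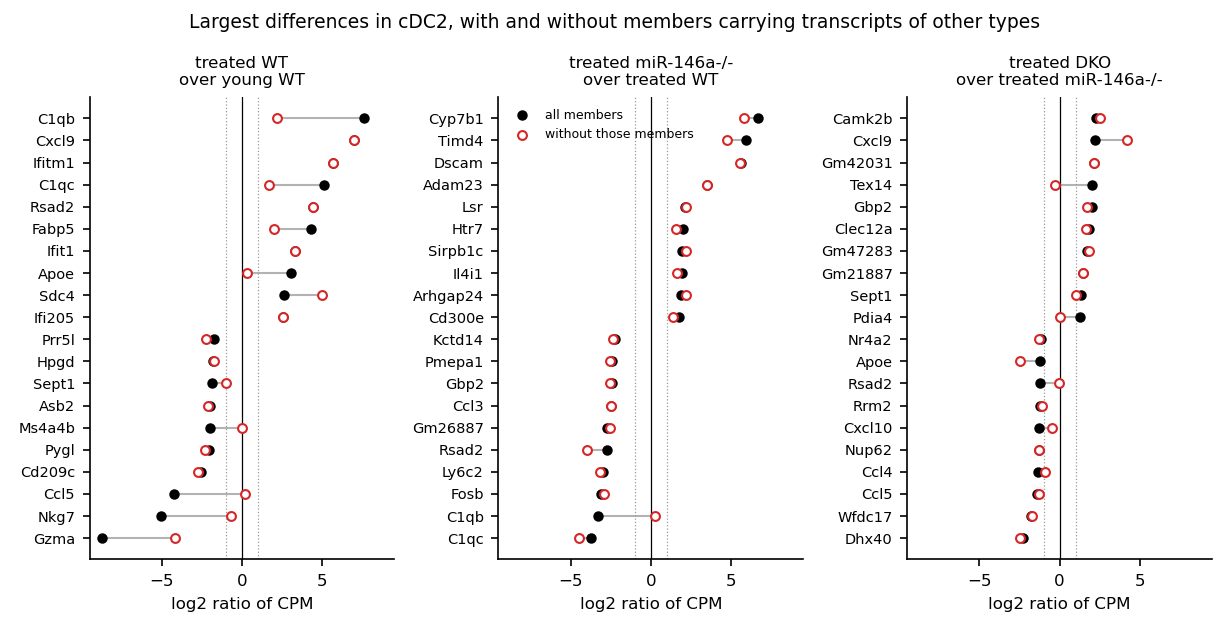
The 10 largest and 10 smallest log2 ratios of each comparison in cDC2 (filled, all members; open, without the 35 members that carry 10 or more UMIs of another type's list), with dotted lines at 2-fold. Open and filled points lie apart for C1qb, Nkg7 and Ccl5 in the first panel, and open points against a library at 0 depend on the added 0.5 counts.

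Signals that dendritic cells send and receive differed in single genes. Of 10 tested costimulatory and checkpoint ligands, Cd40 was higher (22.0, 63.3, 101 and 73.6 CPM; log2 1.48, 0.70 to 2.46) and Cd274, which encodes PD-L1, lower (48.7, 21.4, 65.1 and 58.1 CPM; log2 -1.19, -1.99 to -0.40). Cd274 was lowest in treated WT, and in treated miR-146a-/- it was 1.59 (0.97 to 2.29) higher on the log2 scale. Of 5 cytokines, Tnf was higher (36.1, 96.5, 53.5 and 32.0 CPM; log2 1.39) and Ebi3 lower (102, 43.5, 52.8 and 64.0 CPM; log2 -1.23), while Il1b, the most abundant, stood at 855, 787, 545 and 439 CPM. No UMI of Il1a, Il12b or Il23a was seen in any library. Tgfbr1 was the only one of 11 growth factor receptors past 2-fold (176, 72.8, 60.0 and 91.6 CPM; log2 -1.27). Of 10 pattern recognition receptors Clec4n alone was higher (log2 1.21, 0.21 to 2.49), and it was at 0.49 without the set-apart members and -0.076 in thinned cells.

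The loss of miR-146a was addressed by treated miR-146a-/- against treated WT, 2 libraries of the same age and treatment. Of the 6043 genes, 86 were higher in the knockout (1.42%) and 131 lower (2.17%), with a median log2 ratio of 0.02. Immediate-early genes made up the clearest group, lower in cDC2 and in every other type examined. The chemokines Ccl3, Ccl4 and Cxcl9 and some interferon-stimulated genes were lower, and Timd4, Dscam, Cyp7b1 and Il4i1 higher. Of the 20 named genes with the largest differences, C1qb was within 2-fold with the set-apart members left out. C1qc and Timd4, which are also in the macrophage list that set members apart, then had 0 against 9 and 48 against 1 UMIs.

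Of 19 immediate-early and stress genes, 12 were lower in treated miR-146a-/- and 0 higher, against 2.17% and 1.42% of all genes, with a median log2 ratio of -1.18 (15 lower and -1.20 without the set-apart members). The list summed to 22851, 21074, 11169 and 11751 CPM, so both libraries without miR-146a were low and both WT libraries high. Fos, a component of the AP-1 factor, stood at 2866, 2661, 677 and 822.5 CPM (log2 -1.98, -2.08 to -1.87), and Fosb at 166, 267, 30.4 and 57.4 CPM (log2 -3.12, -3.63 to -2.67). Atf3 stood at 1128, 1063, 295 and 395 CPM (log2 -1.85, -2.01 to -1.69). In all 3 genes the lower value of the WT libraries was at least 2-fold above the higher value of the knockout libraries. Egr1, Jun, Ier2, Btg2, Klf2, Nr4a1, Nr4a2, Dnajb1 and Hspa1a were the other genes past 2-fold.

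These genes also respond to the handling of tissue, and they were lower in other cells too. In cDC1 12 of the 19 were lower and 0 higher (median -1.13), in classical monocytes 9 and 0 (-1.0), in B cells 9 and 0 (-0.86) and in T cells 8 and 0 (-0.92). The medians of all 6043 genes in those types lay from -0.04 to 0.00. In young WT and treated DKO the summed list was 15361 and 7953 CPM in B cells and 15886 and 8574 CPM in T cells, so young WT was above treated DKO there as well. The part of tissue handling in the result was not tested.

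**Figure D4:**
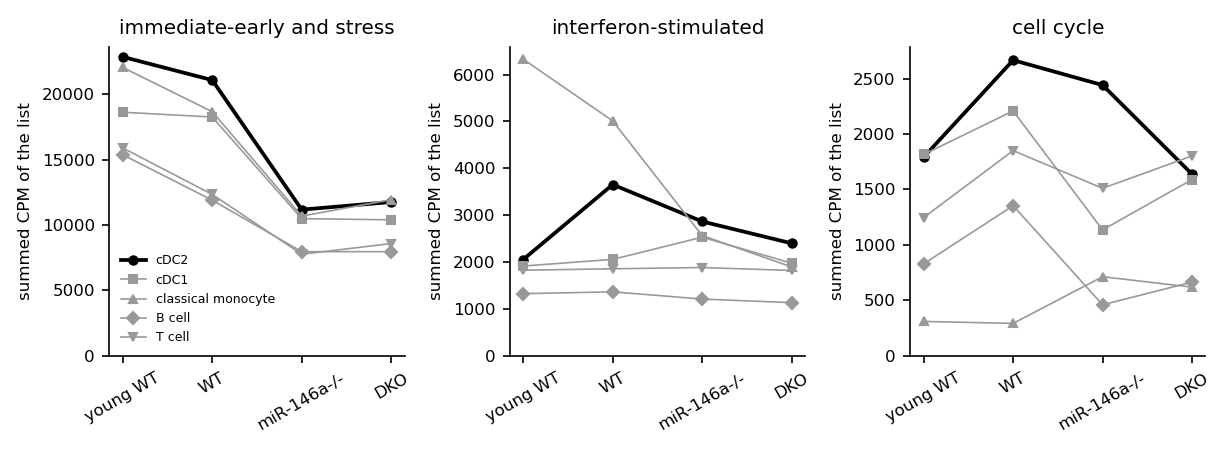
Summed CPM of the immediate-early and stress, interferon-stimulated and cell cycle lists in cDC2 (black) and in cDC1, classical monocytes, B cells and T cells (gray), by library. The first list falls between treated WT and treated miR-146a-/- in all 5 types, and the interferon list is highest in treated WT in cDC2 (3653 CPM) and B cells (1363 CPM) but not in the other 3 types.

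NF-κB genes split. Of 16 tested, Bcl3 and Tnip1 were higher and Tnfaip3 and Nfkbid lower, with a median of 0.39. Bcl3, a nuclear cofactor of the p50 and p52 subunits, stood at 39.2, 65.6, 188 and 133 CPM, highest in the knockout libraries (log2 1.51, 1.16 to 1.89), and without the set-apart members the log2 ratio was 1.31. Tnfaip3, which encodes the inhibitor A20, stood at 157, 140.0, 56.4 and 42.0 CPM, high in both WT libraries (log2 -1.31, -1.72 to -0.92). Relb, the partner of the alternative pathway, was at 83.2, 70.4, 131 and 106 CPM, a log2 ratio of 0.89 (0.52 to 1.28) that did not reach 2-fold. In cDC1, classical monocytes, B cells and T cells the medians of the 16 genes were 0.06, -0.49, -0.20 and -0.28, where those of all genes lay from -0.04 to -0.002.

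Some interferon-stimulated and chemokine genes were lower in the knockout. Of 19 interferon-stimulated genes, 5 were lower and 0 higher (median -0.39), namely Rsad2, Ifi205, Ifit3, Isg15 and Ifit1, at log2 ratios of -2.76, -1.82, -1.82, -1.30 and -1.20. In cDC1, classical monocytes, B cells and T cells the list medians were 0.24, -0.96, -0.72 and -0.01, where those of all genes lay from -0.04 to -0.002. Without the set-apart members 6 of the 19 were lower in cDC2. The UMIs outside the 3 highest cells of each library, still scaled to all members, came to 167 and 119 CPM for Isg15, 29.3 and 20.2 for Ifit3 and 11.9 and 13.7 for Ifit1, so these 3 calls rest on few treated WT cells. They came to 9.49 and 4.34 CPM for Rsad2 and to 56.9 and 10.1 CPM for Ifi205. Of 8 chemokine ligands 3 were lower and 0 higher (median -0.72). Ccl3 stood at 98.9, 142, 24.6 and 16.6 CPM (log2 -2.51, -3.10 to -1.99) and Ccl4 at 573, 422, 209 and 81.0 CPM (log2 -1.01, -1.23 to -0.81), both high in the WT libraries. In cDC1, classical monocytes, B cells and T cells the log2 ratios of Ccl3 were -2.68, -2.17, -0.85 and 0.11. Cxcl9 had a log2 ratio of -1.25, and -3.49 without the set-apart members, since 1 cell held 45 of its 58 UMIs in treated miR-146a-/-. Members with 3 or more UMIs of Cxcl9 were 7 of 72 in treated WT (4.0% to 19.0%) and 2 of 75 in treated miR-146a-/- (0.325% to 9.30%), and these intervals overlapped. Gbp2, a guanylate-binding protein, stood at 17.3, 95.7, 17.4 and 70.3 CPM, but 3 treated WT cells held 100 of 121 UMIs, and the UMIs outside the 3 highest cells came to 16.6 and 10.1 CPM in treated WT and treated miR-146a-/-.

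The largest rises belonged to genes nearly silent in treated WT members. Timd4, a phosphatidylserine receptor better known in resident macrophages, had 3, 1, 100 and 133 UMIs, or 4.71, 0.791, 72.3 and 48.9 CPM, and was seen in 5%, 1.39%, 32% and 13% of members. It was high in both knockout libraries, with a log2 ratio of 5.94 (4.0 to 11.83), and of 4.76 without the set-apart members. Timd4 was the most abundant gene of the macrophage list in both knockout libraries, and that list helped to set the members apart, so the second value is not independent of the gene. The cell adhesion gene Dscam had 3, 1, 82 and 112 UMIs in 7.5%, 1.39%, 22.7% and 21.9% of members, also high in both knockouts (log2 5.65, 3.71 to 11.55). Cyp7b1, an oxysterol hydroxylase, stood at 14.1, 0, 40.5 and 32.4 CPM. Treated miR-146a-/- was at 17.1 times the level of 3 counts in treated WT, and the lower 95% limit of the log2 ratio of Cyp7b1 was 3.75. All 9 of its young WT UMIs were in 1 cell. Dscam differed little in other kept cells (log2 -0.36), whereas Timd4 and Cyp7b1 were higher there as well (1.37 and 2.02).

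Il4i1, an amino acid oxidase that rises when dendritic cells mature, stood at 9.42, 26.1, 103 and 58.1 CPM, highest in treated miR-146a-/- (log2 1.96, 1.42 to 2.57). It was the only gene of the 8 mature-cell markers above the 20 CPM minimum, and Ccr7, Cacnb3 and Nudt17 were at 0 in all libraries, the first by the rule. Adam23, Lsr, Htr7, Sirpb1c, Arhgap24 and Cd300e rose by log2 ratios of 3.52, 2.14, 1.99, 1.97, 1.86 and 1.79. Of the 9 genes of the Clec12a-high list Tmem176a rose past 2-fold (377, 239, 530.0 and 493 CPM; log2 1.15), and without the set-apart members Lyz2 (1.60) and Cx3cr1 (1.02) did too. In treated miR-146a-/- 3 cells held 540 of 998 UMIs of Lyz2. Outside the 3 highest cells of each library Lyz2 was at 228 CPM in treated WT and 331 CPM in treated miR-146a-/-, so its rise depends on few cells. Adgre4 of the patrolling monocyte list, Fcgr4 and Cadm1 also rose, at 1.72, 1.06 and 1.34.

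Further genes were lower. Clec12a, an inhibitory lectin, stood at 113, 96.5, 23.1 and 82.4 CPM, low in treated miR-146a-/- only (log2 -2.04). Klf4, a factor needed by part of the cDC2 lineage, stood at 251, 241, 111 and 103 CPM, low in both knockout libraries (log2 -1.11, -1.40 to -0.83), and its log2 ratio without the set-apart members was -0.87. It was the only one of 10 identity genes, and of 13 dendritic transcription factors, past 2-fold, and it was lower in cDC1 too (117, 108.5, 29.0 and 34.7 CPM). From treated WT to treated miR-146a-/- Klf4 was also lower in classical monocytes (222 and 146 CPM), B cells (40.6 and 9.73 CPM) and T cells (10.1 and 4.05 CPM). Its fall was thus not particular to dendritic cells. Of the lipid-handling genes Insig1 was lower, and Apoe had a log2 ratio of -1.26 with and 0.84 without the set-apart members. Fabp5 was at 0.62 with and 2.50 without them. Ly6c2, Pmepa1, Kctd14 and the long noncoding gene Gm26887 had log2 ratios of -2.97, -2.39, -2.23 and -2.73. In cDC1, classical monocytes, B cells and T cells Gm26887 was also lower, at -1.37, -1.27, -1.37 and -1.52. Pmepa1 was at -1.79 to -0.19 in those types, while Ly6c2 and Kctd14 had both signs there. The receptor Ccr1, the costimulatory ligand Tnfsf9 and the glucose transporter Slc2a1 were at -1.21, -1.36 and -1.05.

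The miRNA absent from these mice and its pairing with target transcripts are shown because they define the comparison. Capitals mark the seed, bases 2 to 8, in the mature miRNA from the RefSeq table (GRCm38.p6, chr11:43374435-43374456, minus strand), and the match to it in the 3′ UTRs of Irak1 (chrX:74015393-74015415, minus strand) and Traf6 (chr2:101697944-101697966, plus strand) of GRCm38.
mmu-miR-146a-5p: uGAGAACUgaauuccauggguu
Irak1 3′ UTR: agactcagaggtcaaAGTTCTCa
Traf6 3′ UTR: accgctctggtgttgAGTTCTCa
The motif AGTTCTC, searched on the transcript strand, was in the longest 3′ UTR of 2345 of 21015 genes (11.2%). Irak1 and Irak2 held it 2 times each, Traf6 4 times, and Numb and Sort1 1 time each, while Relb, Irf5 and Cxcr4 held none.

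Of these transcripts Irak1 and Traf6 differed little between treated WT and treated miR-146a-/- members. Irak1, a kinase below Toll-like receptors, stood at 84.7, 50.6, 55.0 and 62.9 CPM (log2 0.12, -0.38 to 0.62), highest in young WT. Traf6, its ubiquitin ligase partner, stood at 42.4, 29.3, 28.2 and 30.5 CPM (log2 -0.05, -0.74 to 0.64). Irak2 was at 169.5, 128, 89.7 and 94.2 CPM, with a log2 ratio of -0.51 (-0.86 to -0.17). Cxcr4 was at -0.94 (-1.48 to -0.43) and Relb at 0.89 (0.52 to 1.28). Of the 8 tested genes of this pathway 0 were past 2-fold in any of the 3 comparisons, with medians of -0.33, -0.09 and 0.19. Over all tested genes with a 3′ UTR, the median log2 ratio of treated miR-146a-/- over treated WT was -0.01 for the 733 with the motif and 0.03 for the 5216 without it, and 8 (1.09%) and 74 (1.42%) were higher. RNA levels do not show translation, which these data do not measure.

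The added loss of Ccl5 was addressed by treated DKO against treated miR-146a-/-. This comparison gave the fewest differences, 42 genes higher (0.695% of 6043) and 19 lower (0.314%), with a median log2 ratio of 0.00. The higher genes included Camk2b, Clec12a, Cxcl9 and Gbp2, and the lower ones Dhx40, Wfdc17 and Ccl4, together with cell cycle genes Rrm2 and Tk1. Ccl5 itself was at 42.7 and 15.8 CPM in the members (log2 -1.43), where B cells had 107 and 16.6 CPM. In T cells, its main source, it was at 24120 and 124 CPM, so the deletion was seen in the library.

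Clec12a rose back to the level of the WT libraries. It had a UMI in 60%, 65.3%, 28% and 63.0% of members, low in treated miR-146a-/- only, and its log2 ratio of treated DKO over treated miR-146a-/- was 1.81 (1.29 to 2.42). Thinned shares were 38.5%, 36.6%, 9.46% and 28.8%, and those of B cells 5.91%, 3.93%, 0.789% and 4.01%. The same log2 ratio was 1.16 in cDC1, 1.99 in classical monocytes, 2.04 in B cells and 4.14 in T cells, so the low value of the miR-146a-/- library was common to the types examined. The receptor Ccr1 was also higher in treated DKO (43.9, 35.6, 15.2 and 31.6 CPM; log2 1.03), and without the set-apart members its log2 ratio was 0.86.

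Several other differences were common to the cell types. Camk2b, a calmodulin-dependent kinase, stood at 18.8, 19.0, 10.1 and 50.4 CPM, highest in treated DKO (log2 2.27, 1.52 to 3.22), with log2 ratios of 1.44 to 2.43 in cDC1, classical monocytes, B cells and T cells. The predicted gene Gm42031 stood at 102, 126, 103 and 457 CPM (log2 2.14), and was at 1.30 to 2.48 in those types. The helicase gene Dhx40 stood at 58.1, 98.9, 53.5 and 11.0 CPM, lowest in treated DKO (log2 -2.26, -2.94 to -1.65), and was at -2.01 to -0.80 in them. Gm47283 and Gm21887 were likewise higher in every type.

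Some genes that differed in cDC2 lie on the chromosome that carries Ccl5 (chr11:83525778-83530518, GRCm38). Wfdc17, a secreted inhibitor of the whey acidic protein family, starts 0.178 Mb from it and stood at 163, 195, 435 and 128 CPM, highest in treated miR-146a-/- (log2 -1.77, -1.96 to -1.58). The nearest genes examined, Ccl9 and Ccl6, start 0.0471 and 0.0621 Mb away and differed little (log2 -0.17, -0.47 to 0.13, and -0.18, -0.43 to 0.08). Ccl4 and Ccl3 start 0.137 and 0.122 Mb away, Dhx40 3.24 Mb, Tex14 3.88 Mb and Camk2b 77.6 Mb. Ccl4 had a log2 ratio of -1.37 (-1.63 to -1.11), and -0.94 without the set-apart members. Unlike Dhx40 and Camk2b, the other 3 called genes were not common to the types. Of them, Tex14 had 145 of its 188 treated DKO UMIs in 1 cell, and it was within 2-fold without the set-apart members. In cDC1, classical monocytes, B cells and T cells Wfdc17 was at 0.04, -1.32, -1.16 and 0.54, Ccl4 at -0.71, 0.68, -1.82 and -0.49, and Tex14 at -0.35, 0.48, 0.42 and 0.24. The share of all tested genes that lie on this chromosome was not counted, so these genes show no grouping on it. Whether flanking sequence of the Ccl5 allele plays a part was not tested.

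Chemokine ligands gave 1 higher and 3 lower of 8, with a median of -0.38, and 1 and 1 without the set-apart members. Cxcl9 was higher (log2 2.20, 1.82 to 2.63; 4.19 without the set-apart members), and 3 cells held 55.6% of its 527 UMIs in treated DKO. Members with 3 or more UMIs of Cxcl9 were 2 of 75 in treated miR-146a-/- (0.325% to 9.30%) and 11 of 146 in treated DKO (3.82% to 13.1%), and these intervals overlapped. Cxcl10 was lower at -1.25 (-1.50 to -1.01), and at -0.49 without those members. In treated miR-146a-/- 3 cells held 284 of its 305 UMIs, and in treated DKO 3 cells held 190 of 251. Outside those cells Cxcl10 was at 15.19 and 22.45 CPM, so the direction of its difference depends on few cells. Ccl5, Ccl4 and Cxcl10 were the lower ones. Wfdc17, Nup62 and Nr4a2 were lower in the remaining members as well. Tex14 and Pdia4 had rises (log2 2.03 and 1.28) that came from 1 cell each, with 145 of 188 and 183 of 335 UMIs in treated DKO, and were at -0.26 and 0.02 without the set-apart members. Rsad2 and Apoe were lower at -1.23 and -1.21, and at -0.02 and -2.46 without them. The macrophage genes C1qc and C1qb, the neutrophil genes S100a8 and S100a9, Nkg7, Ighm and Ly6c2 were higher, with most UMIs in few cells.

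Cell cycle genes had log2 ratios of 1 sign in each of 2 comparisons, but few were past 2-fold. The 14 genes summed to 1791, 2666, 2441 and 1637 CPM. All 14 had positive log2 ratios in treated WT over young WT (0.31 to 0.81, median 0.61), against a median of -0.02 over all genes, and 0 were past 2-fold. In treated DKO over treated miR-146a-/- all 14 were negative (median -0.51), and the nucleotide synthesis genes Rrm2 and Tk1 were past 2-fold at -1.25 and -1.05. Without the set-apart members Tk1 was at -0.98. Mki67 stood at 160.1, 253, 169.9 and 139.8 CPM, highest in treated WT.

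Per cell, the share with 3 or more UMIs of Mki67, Top2a, Pclaf, Birc5 and Cdk1 together was 17.5% (7.34% to 32.8%), 36.1% (25.1% to 48.3%), 25.3% (16% to 36.7%) and 17.8% (12.0% to 25.0%). The intervals overlapped in each of the 3 comparisons. In thinned cells with 2 or more UMIs the shares were 17.9%, 25.4%, 23.0% and 14.4%, and the intervals overlapped there as well. In treated miR-146a-/- over treated WT the list medians were -1.07 in cDC1, 2.64 in classical monocytes, -1.67 in B cells and -0.28 in T cells. The medians of all genes in those types lay from -0.04 to -0.002. In treated DKO over treated miR-146a-/- its medians were 0.42 in cDC1, -0.25 in classical monocytes, 0.57 in B cells and 0.26 in T cells. Of these types, classical monocytes alone had the sign of cDC2. The medians of all genes in those types then lay from -0.10 to 0.03. The difference between treated WT and young WT was not particular to cDC2, with list medians of 0.29 in cDC1, 0.06 in classical monocytes, 0.86 in B cells and 0.70 in T cells.

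NF-κB genes had log2 ratios below 0 in treated DKO over treated miR-146a-/- for all 16 tested, with a median of -0.31 and 0 past 2-fold. Without the set-apart members the median was -0.17. The median of all genes was 0.00 in the same comparison. Bcl3 was at -0.50 (-0.73 to -0.26), and Tnip1 at -0.64 (-1.0 to -0.28). In cDC1, classical monocytes, B cells and T cells the medians were -0.10, -0.01, -0.04 and 0.05.

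Antigen presentation was even across the 4 libraries. Of 12 tested MHC class II genes other than H2-Ab1, 0 were past 2-fold in any comparison, with medians of -0.03, 0.06 and 0.01. The list summed to 67436, 65116, 68149 and 68640 CPM against 54897 to 55893 CPM in cDC1. Cd74 led it at 37988, 35501, 36819 and 37545 CPM, and H2-Aa, an MHC class II chain, stood at 13153, 12887, 13139 and 13253 CPM. Of 10 MHC class I genes 0 were past 2-fold, and B2m, their light chain, stood at 2544, 2190, 1794 and 2172 CPM. Spi1, a factor of all myeloid cells, was at 601, 698, 856 and 788 CPM.

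Other lists were likewise within 2-fold or nearly so. Of the 10 identity genes 0, 1 and 0 were past 2-fold in the comparisons in order, with medians of -0.18, 0.11 and -0.12, though the rule itself selects on Cd209a and H2-Ab1 among them. Of 87 tested genes with a symbol prefix of ribosomal proteins, a list that also takes in pseudogenes and S6 kinase genes, 0 were in any comparison. Of 15 glycolysis and hypoxia genes only Slc2a1 was, in treated miR-146a-/-, and the list summed to 3627, 3876, 4400 and 4346 CPM. Of 5 chemokine receptors Ccr1 alone was, and Ccr2, the receptor of monocyte-lineage cells, stood at 267, 249, 180 and 244 CPM. Of 4 tested classical monocyte genes Fcgr1 was higher in treated WT (18.8, 41.9, 41.2 and 39.7 CPM; log2 1.11, and 0.81 without the set-apart members), and Ly6c2 was lower in treated miR-146a-/-, and its top 3 cells held 73.7% or more of its UMIs in each library.

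Further lists held few differences. Of 10 costimulatory and checkpoint ligands, Cd274 was higher and Tnfsf9 lower in treated miR-146a-/-, and 0 were past 2-fold in treated DKO. Of 11 growth factor receptors and 10 pattern recognition receptors 0 were past 2-fold in either of these comparisons, and the same held for 5 cytokines. The patrolling monocyte list of 7 genes summed to 1073, 755, 541 and 573 CPM, led by Nr4a1, an immediate-early gene as well. The mature-cell list summed to 17.3, 68.0, 155 and 85.7 CPM, against 4287 CPM or more in gated mature cells. It includes Ccr7, which the rules exclude from members and require in mature cells, so part of this gap is fixed. The plasmacytoid list summed to 228, 352, 315 and 322 CPM, with 0 of 2 tested past 2-fold in any comparison. The lipid-associated macrophage list summed to 1015, 1683, 1167 and 1203 CPM, led by Lgals3, a galectin that cDC1 had as well (mean 778 CPM, against 874 CPM in cDC2). The T-cell and endothelial lists had 0 genes above the minimum, and the single hepatocyte and ESAM-high genes that were tested stayed within 2-fold.

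**Figure D5:**
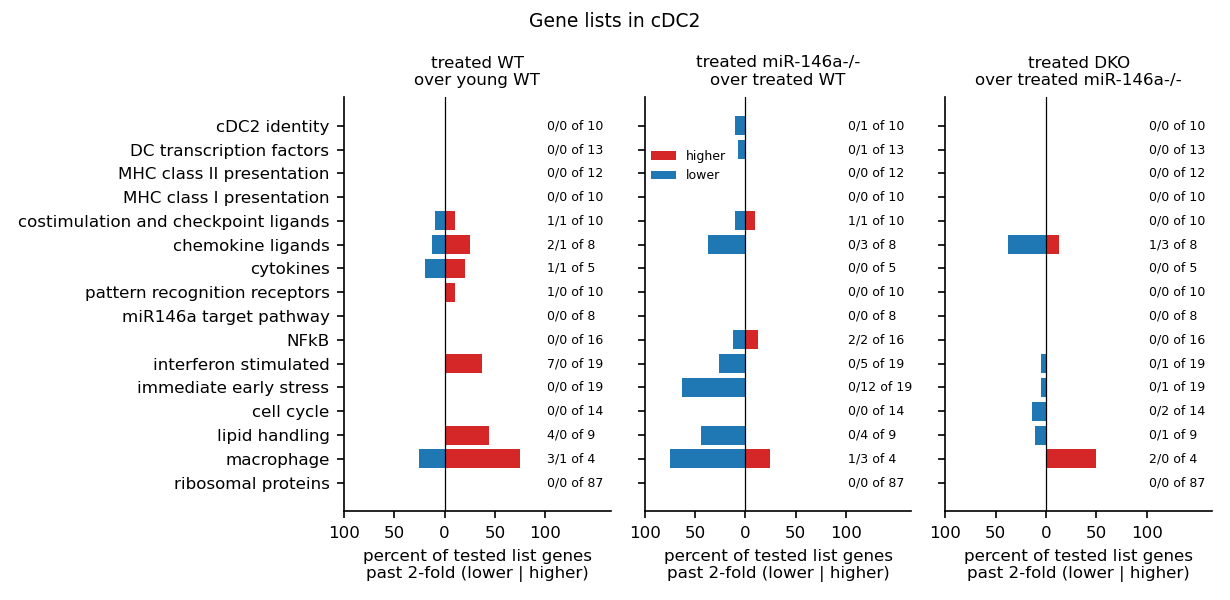
Percent of tested genes of each list that are at least 2-fold higher (red) or lower (blue) in cDC2, for the 3 comparisons, with counts of higher and lower genes of those tested. The immediate-early and stress list has 12 of 19 lower in treated miR-146a-/-, and the MHC class II, MHC class I, miR-146a pathway and ribosomal prefix lists have 0 in all 3.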

How the data were processed

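Gene-by-cell counts of UMIs were used as the authors deposited them, made with Cell Ranger 7.0.1 against mm10 according to the submitters' processing notes. The sources used here differ on the version, and whether intronic reads entered the counts is not given in them. Cells and cell types were chosen on raw counts, with no doublet caller. Members' UMIs were summed per library and scaled to CPM, and log2 ratios used a prior of 0.5 counts. A gene was called at 2-fold or more among genes with a mean of at least 20 CPM over the 4 libraries. Shares of all genes past 2-fold are given for cDC2 only, so counts in the other cell types stand without one. Intervals are exact Poisson, conditional or binomial, or Katz intervals for ratios of shares, at 95%, and cover counting error only. With 1 library per group no test was made. Members and gene lists were chosen with earlier results of these data known.

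The text names the rule's genes, members of 33 lists (339 of 342 symbols had a row), the 20 genes with the largest ratio of members over other kept cells, the 10 largest and 10 smallest log2 ratios of each comparison (at least 40 UMIs, a UMI in at least 10% of members of the higher library, without mitochondrial, ribosomal and antigen receptor genes by symbol prefix), and the 10 most variable genes. The 20 leading genes were ranked among genes of at least 50 CPM.

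Alternatives were other limits on mitochondrial share, genes per cell, Cd209a, H2-Ab1, F13a1 and Chil3, Cd3 genes, CPM, fold and prior, TMM scaling, a mean over cells, thinning to 5000 UMIs, another denominator, and leaving out members with transcripts of other types. The limit of 10 such UMIs was chosen after seeing the data. The calculation was tested on simulated data. Python 3.11.15, numpy 2.4.6, scipy 1.17.1, pandas 2.3.3, matplotlib 3.10.9, R 4.3.3 and edgeR 4.0.16 were used, with GENCODE M21 annotation of GRCm38.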

Additional observations from a re-analysis of the deposited data

Results flagged for a closer look

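Barcodes outside the gene and mitochondrial limits entered no comparison, and a few of them passed the marker rule of cDC2. They were 0 of 702 in young WT, 1 of 791 in treated WT (0.126%, 0.00320% to 0.702%), 0 of 569 in treated miR-146a-/- and 2 of 773 in treated DKO (0.259%). All 3 barcodes were over the limit of 6000 genes. Whether they were single large cells or doublets was not tested.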

How the results depend on the processing

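Of 32 share ratios 29 stayed within their counting interval, and of 774 log2 ratios of named genes 664 did, with 88 moved and 22 reversed. Some of the 22 are values set by the prior, where few or no UMIs were left, and show no direction. Of 54 counts of genes 27 stayed within 1.5 times the main count. Under TMM scaling every count of genes and every log2 ratio of a named gene stayed within these limits.

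With kept cells without Cd3 UMIs as the denominator, the share ratio of treated DKO to treated miR-146a-/- was 1.17. Leaving out members with 2 or more UMIs of the B-cell, NK-cell, neutrophil or hepatocyte lists gave 1.69 for treated miR-146a-/- over treated WT and 0.920 for treated DKO over treated miR-146a-/-. It left 0 young WT members, so it has no value for treated WT over young WT and no counts of genes.

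For treated WT over young WT, the count of higher genes (110) was 48 with a prior of 5, 35 at 50 CPM or more, 1168 with no minimum, 450 at 1.5-fold and 344 in thinned cells. The count of lower genes (96) was 155 as a mean over cells, 17 at 50 CPM, 1486 with no minimum, 531 at 1.5-fold and 449 thinned. For treated miR-146a-/- over treated WT, higher genes (86) were 30, 1752, 385 and 292 at 50 CPM, with no minimum, at 1.5-fold and thinned, and lower genes (131) were 53, 1906, 423 and 317. For treated DKO over treated miR-146a-/-, higher genes (42) were 24 with a prior of 5 and then 18, 1286, 176 and 168, and lower genes (19) were 10, 1079, 150 and 95. Changes of the minimum or the fold alter how many genes can be called by construction, and thinned cells have fewer UMIs per gene.

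Log2 ratios that changed sign without the members carrying 10 or more UMIs of another type's list, an alternative chosen after seeing the data, were, for treated WT over young WT, Ccl5 (0.17), C1qa (-0.99), S100a9 (-0.99), S100a8 (-0.99) and Nr1h3 (-0.30). For treated miR-146a-/- over treated WT they were C1qb (0.28), C1qa (3.21), Cd63 (1.33), S100a9 (3.66) and Apoe (0.84). For treated DKO over treated miR-146a-/- they were Tex14 (-0.26), C1qb (-0.47), S100a9 (-1.95), S100a8 (-3.79) and Ighm (-0.23). In treated WT over young WT no UMI of C1qa, S100a9 or S100a8 was left in either library. Their -0.99 is set by the prior and the library totals and shows no direction. In thinned cells S100a9 (-0.86), S100a8 (-0.86) and Clec4n (-0.076) changed sign for treated WT over young WT, and S100a9 (1.52) and Nkg7 (1.52) for treated miR-146a-/- over treated WT. The values of -0.86 equal what the prior gives with no UMI in either library. Those of 1.52 equal what it gives with a single UMI against none, so neither shows a direction. With 3 or more UMIs of Cd209a, S100a9 (-1.15) and S100a8 (-0.49) changed sign for treated DKO over treated miR-146a-/-. The cause of these changes of sign, and of the changed share ratios, was not tested.

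Depth limits young WT most, with 40 members and a floor of 4.71 CPM. Having 1 library per group leaves differences between mice, livers and sorts unmeasured, and the number of mice per library is not stated. Age and treatment are joined in treated WT against young WT. Treated WT enters 2 comparisons, and so does treated miR-146a-/-, so a high or low value in either library moves both in opposite directions.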
